A study of Macaca mulatta with 304 samples.

Results

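The genes of the T cell receptor complex and of its first signaling steps were followed in whole blood of rhesus macaques given upper thoracic irradiation. They were defined by a list of symbols, CD3D, CD3E, CD3G, CD247, CD2, CD5, CD6, CD28, LCK and ZAP70. Of these 10 symbols, 9 had a row among the 21070 genes of the count table, and all 9 were among the 13751 genes that passed the filter on low counts. ZAP70 was not analysed here. Blood was drawn from 28 adult animals, 14 females and 14 males, and RNA was sequenced from 304 draws. The control group held 24 draws made 2 days before irradiation, 1 per animal; 4 animals, B2006, B2008, B2506 and B2507, had no control draw here. The irradiated groups were 9.8 Gy to the upper thorax (12 animals, 151 draws) and 10.7 Gy (16 animals, 129 draws), and no draw came from an animal kept without irradiation over the same time, so time since irradiation and time in the study cannot be told apart. Draws were grouped as early (Day 3 to 21), medium (after Day 21 to Day 90) and late (after Day 90), and counts of 1 animal within a window were summed, so that the animal was the replicate. Per the study's methods, animals with clinical signs received supportive care that included dexamethasone, and the labels do not say which animals received it. By the same methods all animals were given tramadol or buprenorphine, starting after the Day 3 draw and ending early in the medium window. The control draws came before these drugs, so their part in the early values cannot be told apart from that of irradiation. Animals also left the study over time, so that a later day held fewer animals: 24 with a control on Day 40, 12 on Day 120 and 6 from Day 180.

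The T cell receptor recognises peptide antigen, and the CD3 chains carry its signal into the cell. CD3D, CD3E and CD3G encode the delta, epsilon and gamma chains of CD3, and CD247 encodes the zeta chain, whose tail holds most of the motifs that are phosphorylated after binding. LCK is the Src family kinase that phosphorylates those motifs, and ZAP70 is the kinase that then docks on them. CD2 is an adhesion receptor, CD5 and CD6 are scavenger receptor family proteins that tune the strength of the signal, and CD28 is the main costimulatory receptor of resting T cells. In blood these genes serve as markers of T cells, although NK cells also express CD247, CD2 and LCK, and some B cells express CD5. In bulk blood a lower level may mean fewer T cells or less RNA per T cell, and these cannot be told apart in any result given here.

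The libraries held between 2840219 and 23638161 counts, with a median of 11697200 in control, 11789700 in early, 6905390 in medium and 6935210 in late draws. By the library numbers in the labels, libraries fell into 2 separate runs of numbers, called series A and B here, and a set that all carried the number 0, called series C; the labels do not say what the numbers stand for. The 24 control libraries were 20 of series A and 4 of series C, whereas the 53 late libraries were 7 of series B and 46 of series C. Only 1 animal had its control and a late library in the same series, so that in the late window the series and the time cannot be told apart. In addition, 2 libraries stood apart. The Day 150 library of B1502 had the lowest total and no CD28 count. The Day 40 library of B2007 had a summed erythroid marker level of 327653 CPM (counts scaled to the library size after upper quartile normalization), against 1745 CPM in its own control, and a summed platelet marker level of 31646 against 1611 CPM. The fits of the windows and days that hold either library were also run without it.

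In the rhesus genome (Mmul_10, RefSeq annotation) the 9 genes lay on chromosomes 1, 12 and 14. CD3E (chr14:111360597-111372178, plus strand), CD3D (chr14:111394605-111399738, minus strand) and CD3G (chr14:111399771-111409366, plus strand) formed 1 cluster, and 22426 bases separated CD3E from CD3D. CD3D and CD3G were transcribed away from each other, and only 32 bases lay between their annotated starts. CD5 (chr14:13107650-13136418) and CD6 (chr14:13214623-13264563), both on the minus strand, were 78204 bases apart. CD247 (chr1:24791878-24881620), CD2 (chr1:107491610-107506228) and LCK (chr1:192377811-192411479) lay on chromosome 1, all on the minus strand, and CD28 (chr12:91104946-91138544) on the plus strand of chromosome 12. The levels given below count reads over whole genes, not over these start sites.

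The sequence just upstream of the annotated start is shown for CD5, which had the lowest late change. It covers the 250 bases of chr14:13136419-13136668, written 5′ to 3′ along the minus strand, and capitals mark the match to the E-box word CANNTG, which E proteins bind.
CD5: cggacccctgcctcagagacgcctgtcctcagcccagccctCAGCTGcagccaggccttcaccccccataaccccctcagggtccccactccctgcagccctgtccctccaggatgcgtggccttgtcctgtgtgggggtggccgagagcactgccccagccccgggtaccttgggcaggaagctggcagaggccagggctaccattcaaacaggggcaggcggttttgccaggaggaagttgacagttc

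An E-box word was present on either strand in the 250 upstream bases of 9 of 9 members, and in 60.3% of 20782 protein-coding windows of the same length. A GGAAG word, the core of ETS sites, was present in 6 of 9 members and in 61.1% of all windows. The RUNX core, read as TGTGGT with the variant TGCGGT counted too, was found in 2 of 9 members and in 16.9% of windows. A TATAAA word was found only in that of CD3E among the members (1 of 9), and in 9.85% of windows. The GATA word searched, which is AGATAA, was found in 0 of 9 members and in 8.4% of windows. The 5 words were searched on both strands, and a match is a description of the letters only.

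Before irradiation the members were present at very different levels. Per kilobase of exon, CD3E was highest, at 255 ± 88.9 CPM per kb (SD, n = 24 animals). CD247, LCK and CD3G followed at 131.9 ± 41.9, 121.6 ± 31.3 and 115.8 ± 32.7 CPM per kb, and their order did not hold across animals: CD247 was above LCK in 14 of 24 animals and LCK above CD3G in 9 of 24. CD2 (77.5 ± 23.3 CPM per kb) and CD6 (64.6 ± 18.9) came next, with CD2 above CD6 in 18 of 24 animals. CD3D (27.1 ± 10.5), CD5 (21.8 ± 8.11) and CD28 (15.8 ± 4.63) were lowest. CD3E exceeded CD247, CD3G exceeded CD2 and CD6 exceeded CD3D in 23 of 24 animals each, so that the steps between these pairs were larger than the spread, whereas CD3D exceeded CD5 in 19 of 24 and CD5 exceeded CD28 in 20 of 24. The coefficient of variation of a member among the control animals ran from 25.7% (LCK) to 38.8% (CD3D).

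In the early window no member changed by the rule used here, an adjusted p of at most 0.05 in edgeR's quasi-likelihood test with Benjamini-Hochberg adjustment over 13751 genes together with a fold change of at least 1.5. By this rule 0 of 9 members were called, while 7.53% of all genes were. With the adjusted p alone 5 of 9 members passed, against 49.1% of all genes, and at an unadjusted p under 0.05 the number was also 5; DESeq2 and limma, with the fold threshold, called 0 as well. CD3D ranged from 24.7 to 116.5 CPM in control blood (median 57.2, n = 24) and from 48.2 to 100.9 CPM early (median 78.3). The early level was above the animal's own control in 19 of 24 animals, and the groups overlapped. Its log2 fold change was 0.38 ± 0.10 (SE; edgeR's quasi-likelihood test, adjusted p = 0.00167). CD3G ranged from 58.5 to 200.6 CPM in control (median 122.3) and from 95.5 to 201.6 CPM early (median 149), and was higher in 19 of 24 animals. CD3G thus stood 0.24 ± 0.06 above control on the log2 scale (edgeR's quasi-likelihood test, adjusted p = 0.00271), again with overlapping groups.

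The signaling chain and the kinase had early values of the other sign. CD247 had a median of 240 CPM in control (98.2 to 397) and of 206.2 CPM early (142 to 304), lower in 19 of 24 animals, and LCK a median of 312 CPM in control (174 to 431) and of 266 CPM early (189 to 342), lower in 17 of 24. Each had a log2 fold change of −0.17 (edgeR's quasi-likelihood test, adjusted p = 0.0205 for CD247 and 0.0361 for LCK). CD2, the adhesion receptor, had a log2 fold change of 0.18 (adjusted p = 0.0406 in the same edgeR fit). CD28 stood at 0.08, and CD3E, CD5 and CD6 at −0.03 each on the log2 scale. The median over the 9 members was −0.03 in this window and −0.02 over all genes. Within single animals all 9 members were higher in 4 of 24 and all lower in 3 of 24, and the median of the members was lower in 12 of 24.

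In the medium window the members' values were lower than control in most animals, but none reached a fold of 1.5. By the full rule 0 of 9 members were called by edgeR (0 by DESeq2 and 1, CD5, by limma on the deposited log2 values), while 5.75% of all genes were. With an adjusted p of at most 0.05 alone 6 of 9 passed, against 45.3% of all genes, and at an unadjusted p under 0.05 the number was 6. CD5 had a median of 59.7 CPM in control (39.6 to 126.3) and of 46.1 CPM in the medium window (28.9 to 95.3); it was lower in 22 of 24 animals, and 6 of the 24 medium values lay below every control value. Its log2 fold change was −0.50 ± 0.08 (edgeR's quasi-likelihood test, adjusted p = 1.68e-05). CD247 was lower in 23 of 24 animals, with a median of 166 CPM (82.1 to 308), and LCK in 21 of 24, with a median of 208.2 CPM (126.03 to 301.4). Both groups overlapped their controls. The log2 fold changes were −0.47 ± 0.07 for CD247 (adjusted p = 3.34e-06, edgeR's quasi-likelihood test) and −0.46 ± 0.07 for LCK (4.79e-06). CD28 stood at −0.42 (adjusted p = 0.000346, edgeR), CD3E at −0.30 (0.00453) and CD6 at −0.28 (0.00593). CD3G, CD2 and CD3D were nearest to control, at −0.11, −0.09 and −0.05. The median log2 fold change of the members was −0.30, beside −0.02 over all genes, and the members' median within an animal was lower in 21 of 24 animals, the lowest being B2007 at −0.91, followed by B2005 at −0.90. The value of B2007 rests on its Day 40 library: its Day 30 draw alone stood at −0.46. Without the Day 40 library of B2007 again 0 members were called. The 4 animals whose control and medium libraries came from the same library series gave larger values for some members. In them 4 were called: CD5 (−0.90), CD3E (−0.86), CD247 (−0.76) and LCK (−0.71), with CD3D at 0.47. The 5.75% of all genes given above belongs to the fit of all 24 animals. The share called in these 4 animals is not given here, so this count has no background beside it. All 4 animals received the higher dose, and theirs were the 4 control libraries of series C. CD5 averaged 99.5 CPM in these controls and 64.8 CPM in the 20 of series A. For CD3E these means were 571 and 360 CPM, and for CD3D 42.2 and 65.3 CPM. The part of series, dose and control level in these values was not tested.

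In the late window 6 of 9 members fell, and 0 rose. The 6 were CD5, CD28, LCK, CD6, CD247 and CD3E; by the same rule 18.5% of all genes were called lower and 14% higher in this comparison, which used the 14 animals with both a control and a late draw. CD2, CD3D and CD3G also had an adjusted p under 0.05 and lower values, without reaching the fold of 1.5. The members' median log2 fold change was −0.77, and the median over all genes was −0.13. This last value depended on the scaling: it was −0.03 with TMM and −0.01 with DESeq2's size factors, and relative to it the members' median was −0.65 under each of the 3 scalings. The split of calls moved as well, with 2548 of 4467 called genes lower by upper quartile scaling, 1887 of 4157 by TMM and 1784 of 4218 by DESeq2. All 9 members stayed below control under every alternative run for this window.

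**Figure D1:**
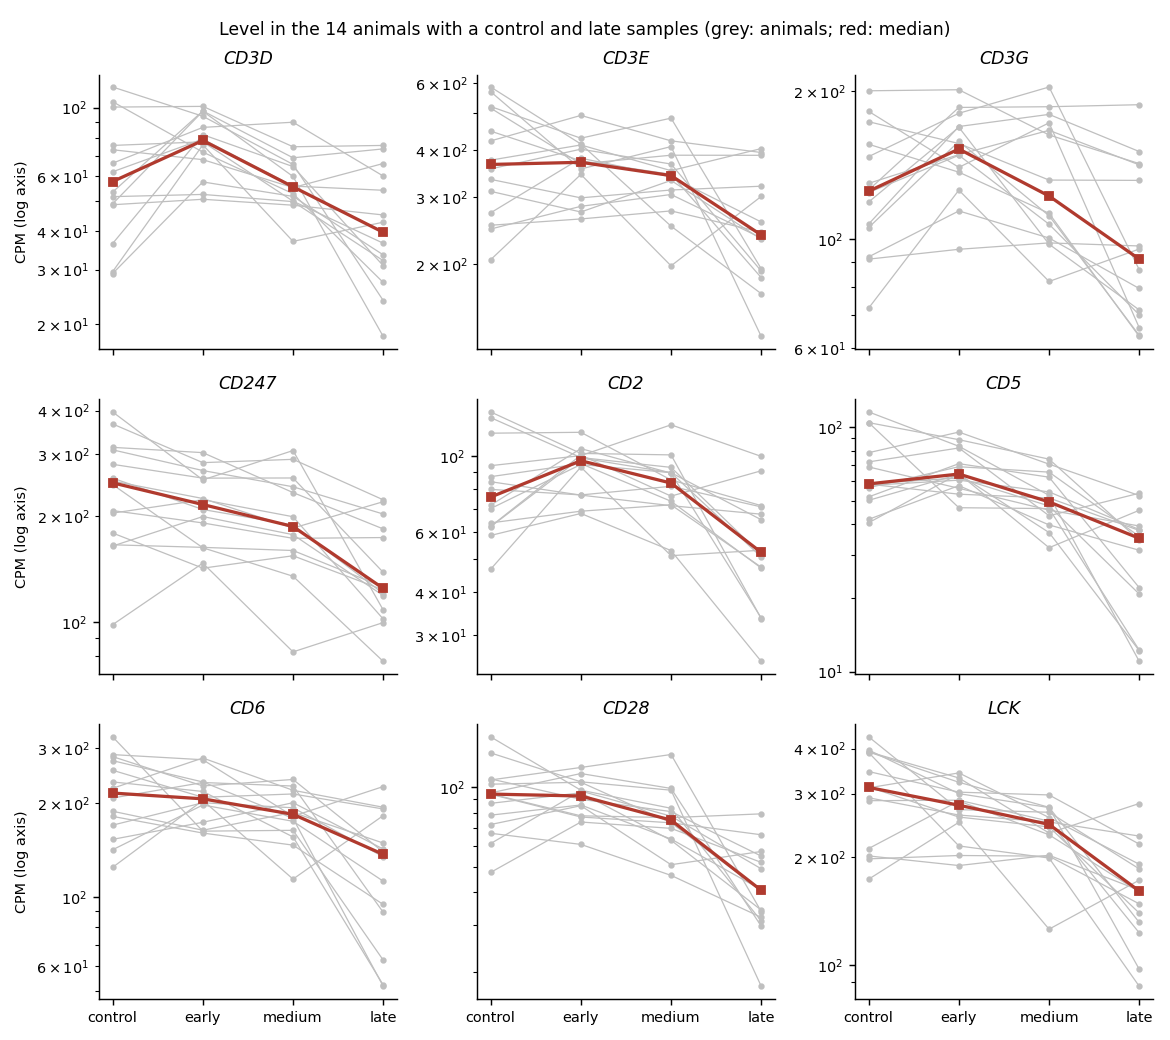
Level of each of the 9 members (CPM of counts summed per animal, log axis) in control and in the early, medium and late windows; in the 14 animals with a control and late samples; grey lines join the values of 1 animal and the red line joins the medians. The late medians of CD5 (35.1 CPM), CD28 (40.7 CPM) and LCK (161 CPM) lie below the control minimum of each gene, whereas 9 of the 14 late values of CD3G lie within its control range.

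CD5 had the lowest change. In control blood of these 14 animals it ranged from 40.6 to 115.2 CPM (median 58.5), and late from 11.01 to 53.6 CPM (median 35.1). It was lower in 13 of 14 animals, and 11 of the 14 late values were below every control value. The log2 fold change was −1.17 ± 0.24 (edgeR's quasi-likelihood test, adjusted p = 0.000489). CD6, its neighbour in the genome and a receptor of the same family, ranged from 124.4 to 326.6 CPM in control (median 215.5) and from 51.6 to 226.2 CPM late (median 136.95), and was lower in 13 of 14 animals. Of its late values 6 were below every control value, and the others overlapped. CD6 had a log2 fold change of −0.83 ± 0.22 (adjusted p = 0.0033 in the same test by edgeR). A LOC114672490 gene on the plus strand lies within the span of CD6 and shares no exonic base with it. CD2, the adhesion receptor, ranged from 46.7 to 134.4 CPM in control (median 75.8) and from 25.1 to 99.7 CPM late (median 52.3), lower in 11 of 14 animals, with a log2 fold change of −0.56 ± 0.17 (edgeR, adjusted p = 0.00782).

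CD28, the costimulatory receptor, ranged from 47.6 to 155 CPM in control (median 94.2) and from 17.7 to 79.3 CPM late (median 40.7). It was lower in 13 of 14 animals, and 8 late values were below every control value. The log2 fold change was −1.11 ± 0.20 (edgeR's quasi-likelihood test, adjusted p = 0.000196). LCK, the kinase, ranged from 174 to 431 CPM in control (median 312) and from 87.5 to 282 CPM late (median 161). It was the only member lower in all 14 animals, and 9 late values were below every control value. Its log2 fold change was −0.92 ± 0.16 (edgeR, adjusted p = 0.000174).

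Among the chains of the complex, CD247 fell furthest. It ranged from 98.2 to 397 CPM in control (median 249) and from 77.1 to 222.7 CPM late (median 124.5), and was lower in 13 of 14 animals. All but 1 late value lay within the control range. The log2 fold change of CD247 was −0.77 ± 0.14 (edgeR's quasi-likelihood test, adjusted p = 0.000172). CD3E ranged from 204.99 to 586.6 CPM in control (median 366) and from 128.5 to 403 CPM late (median 238.3), and was lower in 12 of 14 animals, with 5 late values below every control value. Its log2 fold change of −0.59 ± 0.19 (edgeR, adjusted p = 0.0154) sat at the fold threshold of the call. The call of CD3E was lost by fold with TMM, with DESeq2, with no filter on low counts, and when B1005, B1006, B1503, B1506 or B2504 was left out, the change nearest to 0 being −0.47. CD3D, from 29.2 to 116.5 CPM in control (median 57.7) and from 18.3 to 75.5 CPM late (median 39.6), was lower in 11 of 14 animals, at −0.53 ± 0.20 (edgeR, adjusted p = 0.0315). CD3G was nearest to control, from 72.5 to 200.6 CPM before (median 125.3) and from 63.5 to 188 CPM late (median 91.2), lower in 9 of 14 animals, at −0.39 ± 0.16 (edgeR, adjusted p = 0.0414). With the Day 150 library of B1502 left out, the same 6 members were called.

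Across the 14 animals the fall was uneven. The median over the 9 members was lower in 13 animals, and all 9 were lower in 8. The lowest was B1006, with a median log2 change of −2.15. The only animal above control was B1504, at 0.18, whose single late draw was its last, on Day 102. Of the 14 animals B1504 had the lowest control level of CD3E, CD3G, CD247, CD2, CD5, CD6 and LCK. Its late level was 99.5 CPM for CD247 and 172 CPM for LCK, beside late medians of 124.5 and 161 CPM. For CD3E it was 301 CPM, beside a late median of 238.3 CPM. B1006 had the highest control level of CD3D, CD247, CD2 and CD5. The part of the control level in these changes was not tested. When library series was a term in 1 fit over all samples, the same 6 members were called, with CD3E at −0.77 and CD3D at −0.35. In that fit each draw was its own sample, with the animal as a term, so the animal was not the replicate there.

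A direct comparison of the late with the early window, in the 16 animals that had both, needed no control draw. Over all animals the early libraries were 100 of series A, 8 of B and 24 of C. The late libraries were 7 of series B and 46 of C. So in most animals library series and time cannot be told apart here either. All 9 members were called lower, and 20.2% of all genes were. CD5 had the lowest change at −1.26, followed by CD28 at −1.20 and CD3D at −1.003, and CD3E the smallest at −0.63. CD28 had a median of 94.9 CPM early (60.8 to 118.8) and of 40.3 CPM late (15.3 to 79.3), and was lower in 15 of 16 animals. CD3D had a median of 78.3 CPM early (50.6 to 108.02) and of 38.2 CPM late (14.6 to 75.5), and was lower in all 16. The other members were lower in 14 to 16 animals, and adjusted p in edgeR's quasi-likelihood test ran from 6.66e-06 for CD28 to 0.00141 for CD3E. Without the Day 150 library of B1502 again 9 members were called. With TMM 8 members were called and with DESeq2 7, CD3E being lost in both and CD247 in the second. The median over all genes was −0.18 here (−0.05 with DESeq2), and relative to it the members' median was −0.68 (−0.69 with DESeq2). Of the genes called, 2778 of 4427 were lower by upper quartile scaling and 1789 of 3929 by DESeq2.

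The members did not keep fixed proportions to each other. Taken as a ratio to CD3E in the same animal, which no library size affects, late CD5 was lower than in control by 0.62 on the log2 scale (mean −0.62 ± 0.34, SD, n = 14), in 14 of 14 animals. CD28 (−0.53 ± 0.57) was lower in 11 of 14 and LCK (−0.33 ± 0.26) and CD6 (−0.25 ± 0.27) in 12 of 14 each. CD247 stood at −0.18 ± 0.32, CD2 at 0.03 ± 0.43, CD3D at 0.05 ± 0.71 and CD3G at 0.21 ± 0.51. In the early window the same ratio was 0.41 ± 0.55 for CD3D, higher in 18 of 24 animals, 0.27 ± 0.37 for CD3G, higher in 20 of 24, and −0.14 ± 0.23 for LCK, lower in 20 of 24. These ratios are descriptions, with no test. Most late libraries were of series C and most control libraries of series A, and the part of library series in these ratios was not tested.

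**Figure D2:**
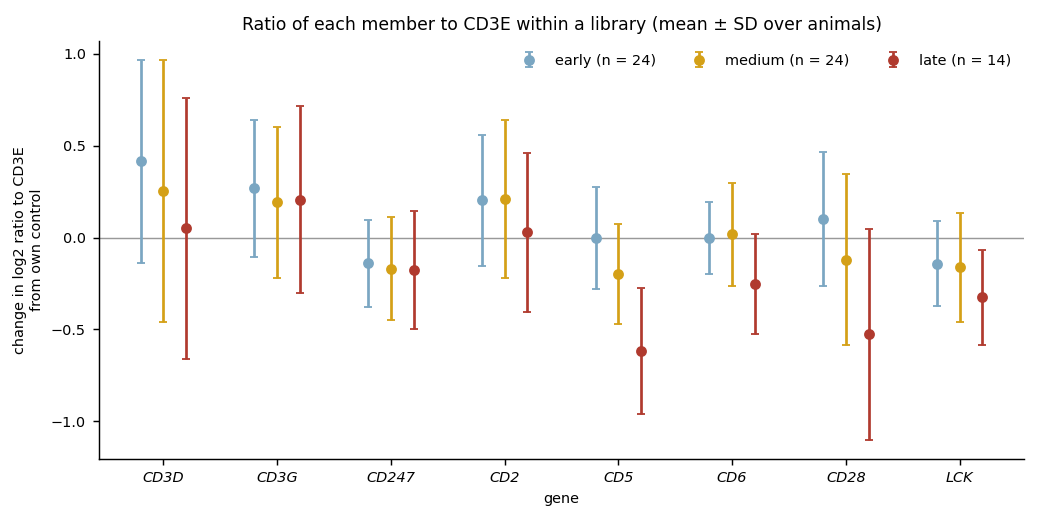
Change from control in the log2 ratio of each other member to CD3E, in the early, medium and late windows; points are means over animals and bars the SD (n = 24 early and medium, 14 late). The late mean of CD5 is lowest, at −0.62, and the early mean of CD3D highest, at 0.41.

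Of these ratios only that of CD3D to CD3E was computed for each library series, and it differed between them. The log2 ratio of CD3D to CD3E was −2.47 ± 0.51 (SD) in the 20 control libraries of series A and −3.88 ± 0.53 in the 4 of series C, and CD3E itself averaged 360 and 571 CPM in them. CD28 averaged 89.04 and 85.4 CPM in the same libraries, and LCK 290.3 and 359.2 CPM. Relative to CD3E, the means of CD28 and LCK were thus lower in series C before irradiation. Their late ratios to CD3E were lower than in control too. The CD5 means, 64.8 and 99.5 CPM, rose nearly in step with CD3E from series A to series C. These 4 control libraries came from 4 other animals, all later given 10.7 Gy, so that here series and animal cannot be told apart. The same 4 are among the 12 animals of that dose in the comparisons of doses, both early and on Days 30 and 40. In early libraries the ratio was −2.18 for series A, −1.80 for B and −2.84 for C, and in late libraries −2.02 for B and −2.76 for C. Thus series C had the lowest ratio of these 2 chains in each window where it could be compared. CD5 averaged 38.7 CPM in the 7 late libraries of series B and 34.1 CPM in the 46 of series C, against 64.8 and 99.5 CPM in the control libraries of series A and C. Some other members differed more between late series B and C. CD3D averaged 74.1 and 42.1 CPM, CD2 90.9 and 58.5, CD3G 131.3 and 105.02, and CD28 63.2 and 42.2. Control means of series A were 65.3 CPM for CD3D, 81.98 for CD2, 130.8 for CD3G and 89.04 for CD28. So in late series B, from 4 animals, the means of CD3D, CD2 and CD3G were not below those controls. In late series C they were, and CD28 was below in both. The part of library series in the early, medium and late values of CD3D was not tested beyond the fits with series given above. The same holds for the late values of CD2, CD3G and CD28.

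Day by day, each draw was compared with the control of the same animals on 15 scheduled days. Over these days 24 pairs of day and member were called lower and 0 higher. No member was called lower on Day 3, 6, 9, 15, 21, 30 or 60, when 4.62%, 5.48%, 2.43%, 0.894%, 2.73%, 1.33% and 1.92% of all genes were; at an unadjusted p under 0.05, between 0 and 4 members were lower on these days, and DESeq2 called 0 on each. On Day 40, with 24 animals, 4 members were called, CD247 (−0.67), CD28 (−0.64), CD5 (−0.61) and CD3E (−0.60), beside 2.85% of all genes. Without the Day 40 library of B2007 only CD247 was called on that day (−0.59), and CD28 (−0.55), CD5 (−0.51) and CD3E (−0.49) lay under the fold threshold with an adjusted p of 8.2e-05 for CD5 and lower for the other two in edgeR's test. On Day 90, with 15 animals, only CD5 was called (−0.62; 3.19% of all genes were).

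Most calls came on Day 120 and Day 150. On Day 120, in 12 animals, 7 members were called, all but CD3G and CD2, while 19.1% of all genes were called lower. CD5 had a median of 28.9 CPM (11.01 to 53.5) against 58.5 CPM in their controls (41.9 to 115.2), and a log2 fold change of −1.36 (edgeR's quasi-likelihood test, adjusted p = 0.000661). LCK, CD28 and CD6 each stood between −1.01 and −1.02. On Day 150, in 9 animals, 7 members were called, all but CD3E and CD3G, beside 19.5% of all genes. CD5 did not overlap its controls on this day: its highest value was 50.2 CPM and the lowest control value 51.8 CPM. It had a log2 fold change of −1.57 (adjusted p = 0.000188, edgeR) and LCK one of −1.31 (0.000533). Without the Day 150 library of B1502, 6 members were called, CD2 being lost, and CD28 stood at −0.78 instead of −1.08.

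**Figure D3:**
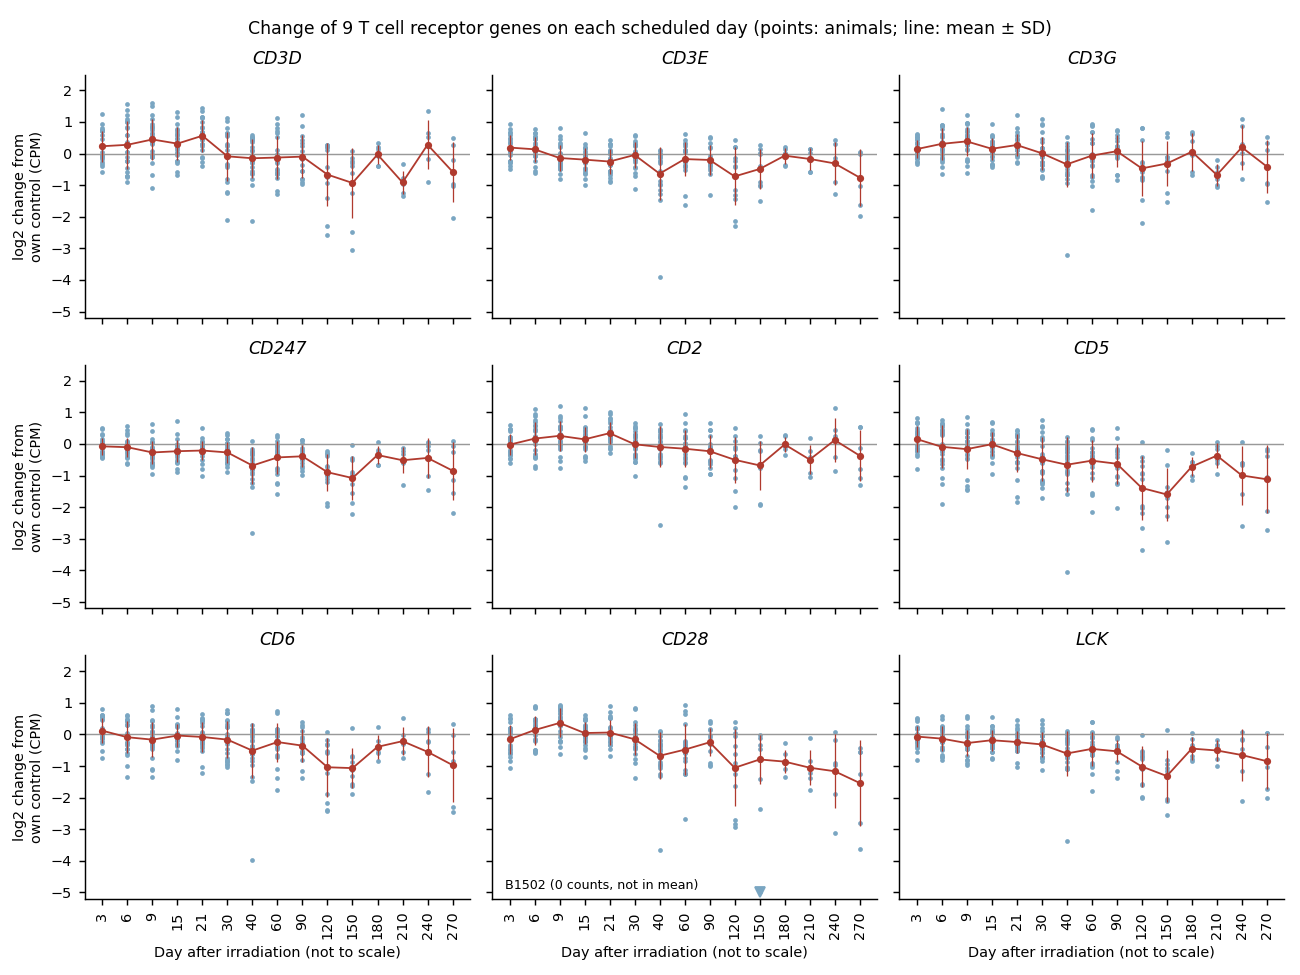
Log2 change of each member from the control of the same animal on 15 scheduled days (prior count of 2); points are animals and the line joins means, with the SD as bars and with the Day 150 library of B1502, which had no CD28 count, drawn as a triangle and left out of the CD28 mean. The means of CD5, LCK and CD247 are lowest on Day 150, that of CD28 on Day 270, and the isolated points on Day 40 are the library of B2007.

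From Day 180 the same 6 animals remained. On Day 180 CD28 (−0.86) and CD5 (−0.72) were called, beside 9.86% of all genes, and the CD5 values (32.7 to 46.8 CPM) again lay below every control value (51.8 to 71.997). CD3E stood at −0.07 on that day. On Day 210 CD28 (−1.06), CD3D (−0.92) and CD3G (−0.68) were called, beside 16.9% of all genes, and CD5 stood at −0.36. So the members called differed between these 2 draws of the same animals, a difference that was not tested. No member was called on Day 240 or Day 270, when 3.51% and 0.00727% of all genes were called lower. At an unadjusted p under 0.05, 3 members were lower on Day 240 and 6 on Day 270, out of 3837 and 4060 genes of either direction. CD28 had log2 fold changes of −1.12 and −1.46 on these days (edgeR's quasi-likelihood test, adjusted p = 0.0784 and 0.0774), and DESeq2 called CD5 and CD28 on both. With library series as a term in 1 fit over all samples, 4 members were called lower on Day 240 and 7 on Day 270, among 3443 and 4438 genes called in either direction. That fit entered every draw as its own sample, with the animal as a term, so repeated draws of an animal counted separately. The part of the series term in the added calls was not tested.

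The 6 animals followed to Day 270 were B1003 and B1004, males, and B1502, B1503 and B1505, females, all at 9.8 Gy, and B2502, a female at 10.7 Gy. The median over these animals of the members' median log2 change stood at −0.24 (Day 90), −0.46 (Day 120), −0.57 (Day 150), −0.27 (Day 180), −0.42 (Day 210), −0.17 (Day 240) and −0.57 (Day 270). Without the Day 150 library of B1502 the Day 150 value was −0.51. The animals were spread widely at the end: on Day 270 the members' median was 0.03 in B1003, −0.06 in B1004, −0.13 in B1502, −1.02 in B1505, −1.73 in B1503 and −2.04 in B2502. Thus the members' median was near control in 3 animals and lower in 3. Single members in the first 3 ran from −0.43 to 0.53 in B1003, from −0.56 to 0.54 in B1004 and from −1.24 to 0.34 in B1502. CD28 and CD5 were below control in 6 of 6 animals on that day, CD28 from 7.60 to 79.8 CPM against 61.2 to 107.5 CPM in control, and CD5 from 8.58 to 58.5 CPM against 51.8 to 71.997.

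**Figure D4:**
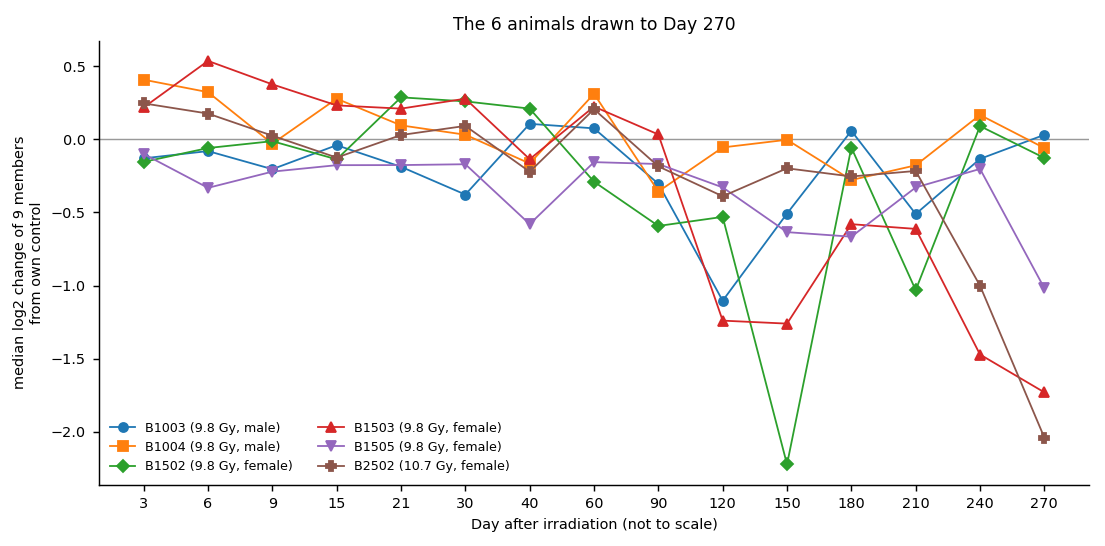
Median log2 change of the 9 members from control in the 6 animals drawn to Day 270, by day after irradiation; each line is an animal. The lines run from 0.03 in B1003 to −2.04 in B2502 on Day 270.

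No difference between doses, sexes or lengths of follow-up passed the test for any member. In the early window 0 of 9 members differed between 10.7 and 9.8 Gy in edgeR's quasi-likelihood test of the interaction, as did 0% of all genes (761 had an unadjusted p under 0.05). The difference of the log2 fold change at 10.7 Gy minus that at 9.8 Gy ran from −0.30 ± 0.16 (SE) for CD5 to 0.19 ± 0.14 for CD28. Early CD5 at 9.8 Gy had a median of 66.4 CPM (52.9 to 95.1) against 58.5 in control (40.6 to 115.2), and at 10.7 Gy of 56.6 CPM (42.2 to 98.4) against 66.4 (39.6 to 126.3), with 12 animals per dose. With Days 30 and 40 summed, 0 of 9 members differed between doses, against 0.0509% of all genes, and 1 member, CD3E, had an unadjusted p under 0.05. CD3E differed by −0.32 ± 0.15 (adjusted p = 0.538 in edgeR's test), with a median of 256 CPM at 10.7 Gy (214.4 to 431.4) and of 343 CPM at 9.8 Gy (225.3 to 478.4). The control medians were 390 and 366 CPM in the same animals. DESeq2 called 0 members in both comparisons, and without the Day 40 library of B2007 the lowest difference on Days 30 and 40 was −0.28, with 0 members called.

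Between sexes the early change, male minus female, differed by −0.11 to 0.04, and 0 of 9 members were called, as were 0% of all genes (0 members had an unadjusted p under 0.05). On Day 120 the 6 animals whose draws ended earlier were compared with the 6 drawn to Day 270. The log2 fold change of the former minus that of the latter ran from −0.87 ± 0.46 for CD3D to −0.23 ± 0.34 for CD247. No member was called (adjusted p of 0.995 for each in edgeR's test), 0% of all genes were, and 1 member, CD2, had an unadjusted p under 0.05, along with 218 genes. Of these 12 animals only 1 received 10.7 Gy, so the late values are largely those of the lower dose.

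Markers of other blood cells moved in the same windows. In the late window 8 of 8 B cell markers were called lower, and their summed level ran from 130 to 511 CPM, against 333 to 2526 CPM in control, lower in 14 of 14 animals. Of 8 neutrophil markers 7 were called higher, with a summed level of 4701 to 13222 CPM against 982 to 9026 CPM, higher in 12 of 14 animals. Of 7 monocyte markers 5 were called higher, 1691 to 5724 CPM against 650 to 4535 CPM, and of 7 platelet markers 6, 1670 to 7246 CPM against 855 to 4462 CPM. Only 1 of 8 NK cell markers, GZMB, was called, and was lower, with sums of 554 to 1661 CPM against 533 to 3206 CPM. The summed level of the 9 members had a median change of −0.47 on the log2 scale and was lower in 13 of 14 animals. Values in CPM are relative to the other genes of the same library, and the part of the myeloid and platelet markers in the members' late values was not tested.

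In the early window 8 of 8 erythroid markers were called higher (sums of 6743 to 33807 CPM against 1745 to 11511 CPM in control, higher in 24 of 24 animals), 8 of 8 B cell markers lower (249 to 1429 against 333 to 2526 CPM) and 4 of 7 platelet markers higher, while 1 NK cell marker was lower. B cell and T cell genes therefore differed in their early calls, with 8 of 8 B cell markers and 0 of 9 members lower; the difference itself was not tested. In the medium window 5 of 8 B cell markers were lower and 6 of 8 erythroid markers higher, and 0 of 8 NK cell markers were called by edgeR. Without the Day 40 library of B2007 these counts were 4, 6 and 0, and the late counts of the marker lists were the same without the Day 150 library of B1502. FCN1 of the monocyte list and PF4 of the platelet list were not analysed here. NK cells also express CD247, CD2 and LCK, and the summed NK cell level lay within its control range in all 3 windows; its part in the values of these 3 members was not tested.

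**Figure D5:**
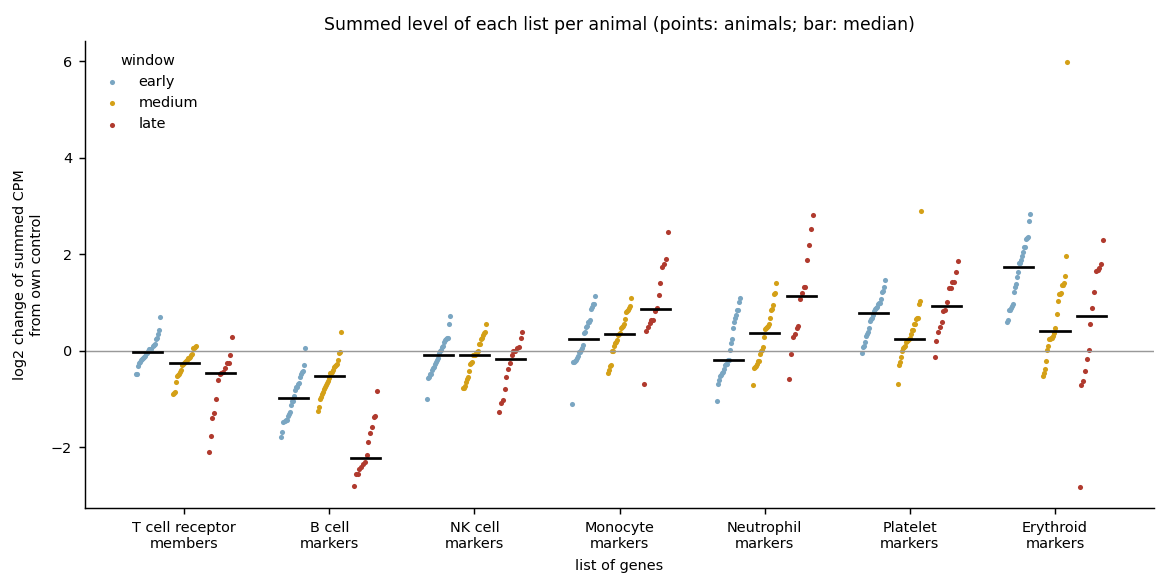
Log2 change from control in the summed CPM of the 9 members and of 6 lists of blood cell markers, in the early, medium and late windows; points are animals and bars are medians. B cell markers lie below 0 in all 14 late animals, with a median of −2.23, and the members at a late median of −0.47.

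Downstream of the receptor, 45 of 47 genes of a list of coreceptors, adaptors, kinases, phosphatases and signal proteins were tested (TRAT1 and CD27 were not analysed here). In the early and medium windows 0 were called in either direction by edgeR. In the late window 14 were called lower (31.1% of the list against 18.5% of all genes) and 3 higher (6.67% against 14%), and the list's median log2 fold change was −0.35, beside −0.13 for all genes. Among the lowest were CD4, the coreceptor of helper T cells, which monocytes can also express, and PLCG1, the phospholipase recruited to LAT. CD4 ranged from 96.3 to 246 CPM in control (median 153) and from 30.1 to 106.8 CPM late (median 65.9), and PLCG1 from 158.7 to 356 CPM in control (median 222.1) and from 45.9 to 179 CPM late (median 117.2). Both overlapped their controls. CD4 stood at −1.11 ± 0.18 (edgeR's quasi-likelihood test, adjusted p = 7.26e-05) and PLCG1 at −1.07 ± 0.18 (0.000124), both lower in 14 of 14 animals. The 3 called higher were SLA (0.86 ± 0.21), an adaptor that limits receptor levels, TEC (0.71 ± 0.17), a kinase, and CBL (0.63 ± 0.20), a ubiquitin ligase, all 3 of which are also expressed in myeloid cells. Others called lower included RASGRP1, CD40LG, PRKCQ, SKAP1, UBASH3A, NFATC2, DGKA, FYN, LAT, the adaptor that ZAP70 phosphorylates, and THEMIS.

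Across all 304 draws of 28 animals, with log2 CPM centred within each animal, the members varied together to different degrees. The correlation of a member with the mean of the others ran from 0.77 for CD3G to 0.92 for CD247 and for LCK. The closest pair was CD247 and LCK (r = 0.95), followed by CD5 and CD6 (0.94), and CD3D with CD2 reached 0.89, whereas CD3D with CD3E gave 0.56 and CD3G with CD5 0.49. So CD3D and CD3E, neighbours in 1 gene cluster and partners in 1 complex, were less alike than CD5 and CD6. Outside the lists the 5 genes most like the members' mean were LOC703029 (r = 0.93), LOC716034 (0.92), GIMAP1 (0.92), ATP8B2 (0.91) and TCF7 (0.91). TCF7, a transcription factor of naive T cells, had log2 fold changes of −0.13, −0.62 and −1.20 in the early, medium and late windows. These correlations share libraries, depth and animals and are descriptions only.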

How the data were processed

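The authors sequenced RNA from whole blood. Per the submitters' processing notes the tools included cutadapt 2.10, STAR 2.7.6a and Subread 2.0.1, with the Mmul_10 genome; whether counting used strand is not given in the sources used here. The authors deposited raw read counts per gene (21070 genes, 304 samples) and normalized log2 values (16730 genes); the latter served only as an alternative.

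Groups came from the treatment, time point and animal in the labels. Counts of 1 animal were summed within a window, and the quasi-likelihood test of edgeR 4.0.16 (R 4.3.3) was run on the counts with upper quartile scaling and the animal as a block. It covered 13751 genes, those with 3 counts or more in 80% of samples or more. Calls needed an adjusted p (Benjamini-Hochberg) not above 0.05 plus a 1.5-fold change; interactions were called by adjusted p alone. A day was tested when 6 or more animals had that draw and a control. CPM are counts scaled to the library size after the upper quartile factor, not to the plain total; per-day log2 changes used a prior count of 2, and the floor for a gene with no count is 3 counts, which covers counting error only. The fits were tested on simulated counts with known changes. Alternatives were DESeq2 1.42.0, TMM scaling, no filter, a minimum of 10 counts, no block, limma 3.58.1 on the deposited log2 values, library series as a term or held fixed (4 or more animals), each late animal left out, and, chosen after seeing the data, 2 libraries left out. The fit with library series as a term took all draws as separate samples, with the animal as a term. Figures used Python 3.11.15, pandas 2.3.3, numpy 2.4.6 and matplotlib 3.10.9.

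The pairing comes from the animal named in the labels: deviations from the group means of control and window samples of 1 animal correlated with a median r of 0.58 early (24 of 24 animals closest to themselves), 0.45 in the medium window (21 of 24) and 0.28 late (7 of 14).

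The members and lists were chosen with earlier results of these data known. Named genes were all members, the 3 highest and 3 lowest called genes of the pathway list in each window, and the 5 genes outside the lists most correlated with the members' mean; others of that list were named after their values were seen, and some items are not reported here. Upstream sequences and positions came from the RefSeq annotation of Mmul_10.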

Additional observations from a re-analysis of the deposited data

Results flagged for a closer look

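CD28 in the Day 150 library of B1502, a female given 9.8 Gy, lay far from the other 8 animals of that day. Its log2 change from control was −8.30, and the next lowest animal stood at −2.37; the gap made up 0.715 of the whole range. The library held 0 CD28 counts against 919 in the control of the same animal. A floor of 3 counts in this library corresponds to 1.21 CPM, so the level was at least 55.5-fold lower than the 66.97 CPM of the control; the value of −8.30 depends on the prior count of 2. In the same library CD3D had 14 counts and CD5 16, the members' median log2 change was −2.22, the summed B cell markers were at 92.6 CPM against 844 CPM in control, and the summed monocyte markers at 5140 against 2083 CPM. The members' median of this animal was −0.53 on Day 120 and −0.06 on Day 180. The library had the lowest total of all, 2840219 counts. Among 45 groups of member and day tested in this way 1 was found, and chance gives about 5% of them.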

How the results depend on the processing

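With the adjusted p alone 5 members passed early and 6 in the medium window, and over the 15 days 49 pairs of day and member were lower (24 with the fold threshold) and 12 higher (0). In the medium window limma on the deposited log2 values called 1 member, and the 4 animals of the same library series, all at the higher dose, gave 4. With library series as a term in 1 fit over all samples, 38 pairs were lower over the days. The separate fits of single days gave 3 calls against 6 there for Day 210, and 1 against 2 for Day 90. They gave 0 against 4 for Day 240, and 0 against 7 for Day 270. These fits also differed in how draws and animals entered, so the part of the series term alone was not tested. On Day 40 the 4 calls became 2 with TMM and with DESeq2, 6 in the 4 animals of the same series and 1 without the Day 40 library of B2007. On Day 150 the 7 calls became 4 with limma. DESeq2 called 2 on Day 240 and 2 on Day 270, and without the replicate block Day 90 had 0. On the days with at least 4 animals of the same series, those animals gave 7 lower pairs against 4 in all animals, and 1 higher, CD3D on Day 21, against 0. The cause of these differences was not tested. Leaving out each late animal in turn gave 5 to 8 late calls. Without the replicate block (the animal) 0 members were called early, 0 in the medium window, 6 late, 8 between late and early and 19 over the days. The late window within 1 library series was not run, since only 1 animal had both libraries. No called member changed direction under any alternative run, and the tests of dose, sex and follow-up gave 0 members with TMM, DESeq2, no filter and a minimum of 10 counts. Late and medium libraries were shallower than control libraries, and with 6 animals from Day 180 the later days rest on few animals.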

Other observations

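Blood was also drawn outside the schedule at the end of follow-up of some animals, and these draws gave a wide range of members' medians relative to control. The median log2 change of the 9 members was −1.04 in B2004 on Day 71 (−0.18 at the draw before), −1.67 in B2504 on Day 94 (−0.997 before) and −1.20 in B1001 on Day 127 (−0.23 before). It was −0.05 in B2501 on Day 77 (−0.62 before), 0.18 in B1504 on Day 102 (−0.81 before), −0.71 in B1002 on Day 160 (−0.70 before) and −0.68 in B1506 on Day 172 (−1.94 before). Each is a single draw, with no test.

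Among the 4 animals with no control draw, B2507 had 1 late sample, in which CD3E was at 67.97 CPM, LCK at 48.1, CD28 at 15.3 and CD5 at 7.04 CPM, below the late range of the 14 animals with a control for each of these genes. In its early draws the same animal had CD3E at 349 CPM and CD5 at 74.4 CPM.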
